A study of Homo sapiens with 4 samples.

Results

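The genes described are those of the cytosolic ribosome: every protein-coding gene whose symbol is RPL or RPS followed by a number, with or without one of a few suffixes, together with RPLP0, RPLP1, RPLP2 and RPSA. This naming rule, which uses no measured value, found 84 of the 20024 genes in the table. It also takes in 7 alternative paralogs, RPL3L, RPL7L1, RPL10L, RPL22L1, RPL26L1, RPL39L and RPS27L, and misses some further genes of the ribosome, among them FAU, RPL36AL and RACK1. The cells were SJSA-1, an established line from a human osteosarcoma (a bone tumour), and mRNA levels were compared between cells with knockdown of the zinc finger transcription factor ZNF217 (2 libraries) and control cells (2 libraries). Both groups are the same line; the means of knockdown and what the controls received are not given in the labels. The labels say that samples were run in duplicate, not that the duplicates were separate cultures, so every p-value measures the spread between these libraries, which may be technical.

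Each ribosomal subunit is built in the nucleolus from ribosomal RNA and ribosomal proteins, the large subunit from RPL proteins and the small subunit from RPS proteins. Most of the proteins are needed in equal numbers, and most of their mRNAs share a start: transcription begins at a C inside a stretch of pyrimidines, the 5′ terminal oligopyrimidine (TOP) tract, through which LARP1 and the mTOR pathway set how much of the mRNA is translated and kept. Free RPL5 and RPL11, carried with the 5S ribosomal RNA, can bind MDM2, the p53 inhibitor that SJSA-1 cells carry in amplified form.

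Of the 84 genes, 67 have an entry in the RefSeq promoter table (GRCh38.p14). With a TOP start defined as a C at the annotated start followed by 4 letters that are each C or T, 47 of these 67 genes (70.1%) had one, against 6.33% of the 15095 genes in the table. The windows below hold 15 bases before the annotated start and 15 from it on, read 5′ to 3′ on the gene's strand, and capitals mark the unbroken run of C and T from the start where there is a TOP start. The first 6 set canonical genes beside their alternative paralogs, whose ratios to each other are given later; of the others, RPL31 stands for genes lower in both knockdown libraries, RPL27A for the largest gap between controls, and RPS12 and RPLP1 for small differences.
RPL22 (chr1:6199581-6199610, minus strand): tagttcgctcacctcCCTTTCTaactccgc
RPL22L1 (chr3:170870181-170870210, minus strand): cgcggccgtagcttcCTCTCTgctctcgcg
RPS27 (chr1:153990747-153990776, plus strand): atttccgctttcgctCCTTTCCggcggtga
RPS27L (chr15:63157463-63157492, minus strand): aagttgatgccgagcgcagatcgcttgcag
RPL26 (chr17:8383179-8383208, minus strand): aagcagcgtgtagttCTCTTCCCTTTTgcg
RPL26L1 (chr5:172958714-172958743, plus strand): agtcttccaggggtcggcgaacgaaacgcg
RPL7L1 (chr6:42879601-42879630, plus strand): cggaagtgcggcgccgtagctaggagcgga
RPL39 (chrX:119791616-119791645, minus strand): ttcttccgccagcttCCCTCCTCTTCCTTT
RPL31 (chr2:101002274-101002303, plus strand): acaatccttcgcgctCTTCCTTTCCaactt
RPL27A (chr11:8682777-8682806, plus strand): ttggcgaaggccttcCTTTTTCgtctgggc
RPS12 (chr6:132814554-132814583, plus strand): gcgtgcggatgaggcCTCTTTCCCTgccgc
RPLP1 (chr15:69452803-69452832, plus strand): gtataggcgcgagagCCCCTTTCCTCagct
RPL22L1 shares the TOP start of RPL22, while RPS27L, RPL26L1 and RPL7L1 have other letters at their annotated starts; RPL26L1 has 2 starts in the table, of which 1 is shown. Where transcription starts in SJSA-1 cells was not measured. Over the 300 bases from 250 before to 50 after the start, on either strand and counting each motif whether or not it overlaps another, the ETS-family motif CCGGAAG was in 24 of the 67 promoters (35.8%, against 16.7% of all promoters). The YY1 motif AAGATGGC was in 10.4% (against 4.78%), and the Sp1 motif GGGCGG in 58.2% (against 65.2%). CAGAA, the core of the motif reported for ZNF217, was in 56.7%, against 55.5% of all promoters, and TATAAA lay within 50 bases upstream in 5.97%, against 4.55%.

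The knockdown libraries held 24428774 and 23217521 counts and the control libraries 21466327 and 24487126. ZNF217 was measured at 37.6 and 31.9 CPM (counts scaled to the library's total) in knockdown cells, against 66.2 and 73.5 CPM in control cells, the direction of the labels, with a log2 fold change of −1.01 (standard error 0.20, adjusted p = 0.207 by edgeR's quasi-likelihood test and 0.00911 by DESeq2). The common biological coefficient of variation was 0.078 within the knockdown pair and 0.393 within the control pair, which cannot tell which control is the unusual one. Over all tested genes, log2 ratios of the knockdown mean had a standard deviation of 0.70 over control 1 and 0.91 over control 2. For 14 immediate early genes the median log2 ratio was 2.10 for control 2 over control 1. For the knockdown mean it was 0.15 over control 1 and −1.72 over control 2. By these medians control 2, not control 1, lay apart from the knockdown libraries in the immediate early genes. The set is therefore described against each control alone as well. The 8 markers of the labelled cells summed to 4392 and 4293 CPM in knockdown cells, against 5089 and 5671 CPM in control cells, most of it VIM and SPARC. The osteoblast genes ALPL and COL1A2 had at most 4 counts in any library. VIM, COL1A1 and RUNX2 were highest in control 2, but CDK4 and MDM2 were lowest there. CDK4 had 331 and 367 CPM in knockdown cells, against 349 and 184 CPM in control cells. MDM2 had 46 and 39 CPM, against 41 and 30 CPM. The 7 epithelial markers summed to 1.13 and 0.959 CPM in knockdown cells, against 0.879 and 2.54 CPM in control cells, and the 8 blood cell markers stayed under 1 CPM in each library, with 3 of them at 0 throughout. The part of these markers and of the immediate early genes in the results was not tested. In bulk RNA, fewer cells with a transcript and less of it per cell cannot be told apart, and every level here is relative to the rest of the library.

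The 84 genes took 12.04% and 12.74% of all counts in the knockdown libraries, against 12.51% in control 1 and 16.16% in control 2. The exact binomial 95% intervals, which cover counting error only, were 12.02 to 12.05%, 12.73 to 12.76%, 12.49 to 12.52% and 16.14 to 16.17%, in the same order. On this scale control 1 lay inside the range of the knockdown pair, and control 2 above all 3 others. As a share of TPM, which divides counts by gene length, the genes took 13.9% and 14.4% in knockdown cells, against 15.2% in control 1 and 17.6% in control 2, so that the groups did not overlap. The group means of the count share were 12.4% ± 0.495 in knockdown and 14.3% ± 2.58 in control cells (SD, n = 2 each), a difference smaller than the spread of the controls. Both subunits had their highest share in control 2: large-subunit genes received 1.37 times the counts of small-subunit genes in each knockdown library, against 1.39 times in control 1 and 1.43 times in control 2. The 13 mRNAs of the mitochondrial genome took 3.72% and 4.10% in knockdown cells, against 2.55% and 3.78% in control cells. With them left out of the totals, the ribosomal share was 12.5% and 13.3%, against 12.8% and 16.8%.

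**Figure D1:**
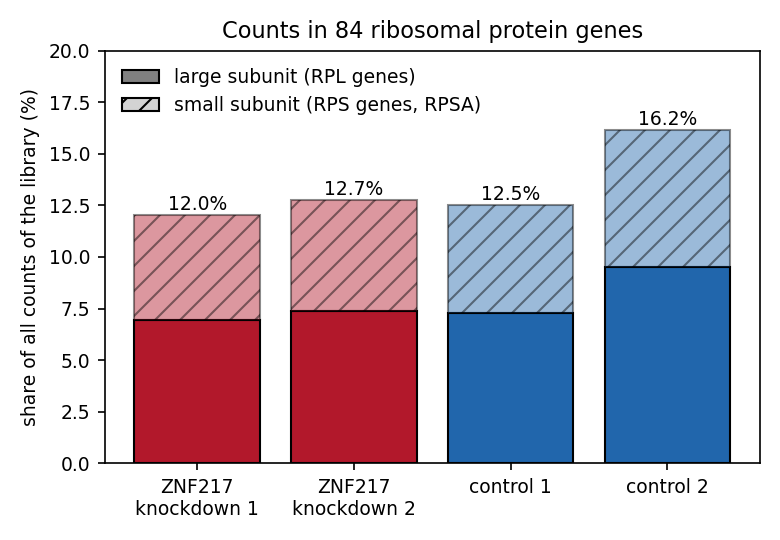
Share of each library's counts, in percent, that fell on the 84 ribosomal protein genes, with large-subunit genes in solid colour and small-subunit genes hatched; each bar is 1 library. Both knockdown libraries (12.04% and 12.74%) and control 1 (12.51%) lie close together, and control 2 is at 16.16%.

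Although most of the proteins are built into the ribosome in equal numbers, their transcripts were not listed at equal levels. On the TPM scale the quartiles of the tested genes were 3.41-fold apart, but the highest and the lowest gene differed 968-fold. RPS12, a small-subunit protein, had the highest level, at 10060 and 10410 TPM in knockdown cells, against 9987 and 9894 TPM in control cells. RPS21 followed with 5761 and 6239 TPM in knockdown cells, against 6041 and 7828 TPM in control cells, and then RPS27 with 5312 and 5408 TPM, against 5760 and 6799 TPM. These 3 kept one order, RPS12 above RPS21 above RPS27, in each library, but RPS21 in either knockdown library lay within the range of RPS27 over the libraries. At the low end RPL36A had 11.3 TPM in each knockdown library, against 11.6 and 7.46 TPM in control cells. RPS27L had 24.2 and 23.8 TPM in knockdown cells, against 23.4 and 11.5 TPM in control cells, above RPL36A in each library, although its value in control 2 lay within the range of RPL36A over the libraries.

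The low end depends on how genes were measured. Deposited lengths are those of all annotated exons joined (639 to 9845 bases, median 3055), far above a single mRNA for some genes: RPS27L is listed at 8825 bases and RPL36A at 3964. With the length of the principal GENCODE transcript, available for 73 genes, the span was 605-fold with RPS27 highest and RPS27L lowest, and 178-fold without the alternative paralogs. RPL36A, RPS10 and RPL17, which were among the 6 lowest, each overlap an annotated read-through gene (RPL36A-HNRNPH2, RPS10-NUDT3 and RPL17-C18orf32) that itself had at most 3 counts. How reads shared between overlapping genes, or between a gene and its processed pseudogenes, were counted is not given in these sources. Of the 84 genes, 77 have at least 1 named pseudogene in GENCODE release 29, led by RPL23A with 91, RPSA with 74 and RPL21 with 66, so the level of each such gene is uncertain to that extent.

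After the low-count filter, 82 of the 84 genes were tested. The heart and skeletal muscle form RPL3L had 11 and 9 counts in knockdown cells, against 1 and 0 in control cells, and the testis retrogene RPL10L had 2 and 1 counts, against 1 and 0. A count of 0 allows up to 0.123 CPM in control 2.

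The control libraries differed from each other in one direction across most of the set. Of the 82 genes, 77 (background: 49.9% of the 12965 genes tested) were higher in control 2 than in control 1, with a median log2 ratio of 0.49 and quartiles of 0.40 and 0.62, while the median over all tested genes was 0.00. More than 1.5-fold higher in control 2 were 24 of 82 genes (background 22.8%), and more than 1.5-fold lower were 2 (background 19.8%). With 1 library on each side these ratios have no replicate check. The ratios of the set had a standard deviation of 0.31 on the log2 scale, against 0.89 over all tested genes. Such a spread was not particular to the set. Among lists described below it was 0.22 for small respiratory chain subunits, 0.34 for translation factors and 0.35 for mitochondrial ribosomal protein genes. For ribosome assembly factors it was wider, at 0.50.

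RPL27A, a large-subunit protein, had the highest ratio, with 5445 CPM in control 2 and 2991 CPM in control 1, a log2 ratio of 0.86. RPL28 had 1821 and 1059 CPM, RPS28 had 635 and 370 CPM, RPL3, which lies beside the peptidyl transferase centre, had 4232 and 2509 CPM, and RPS29 had 1432 and 856 CPM in the same libraries. Their log2 ratios were between 0.74 and 0.78, and their knockdown levels lay close to control 1, with 2924 and 3073 CPM for RPL27A and 338 and 389 CPM for RPS28. Of the 5 genes that were lower in control 2, 3 were alternative paralogs: RPL7L1 (log2 ratio −0.80), RPS27L (−0.75) and RPL26L1 (−0.41). RPL36A (−0.36), with at most 345 counts in any library, was also among them. RPS26, one of the small-subunit proteins contacting mRNA upstream of the start codon, was nearly level, with 393 CPM in control 2 and 391 CPM in control 1.

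**Figure D2:**
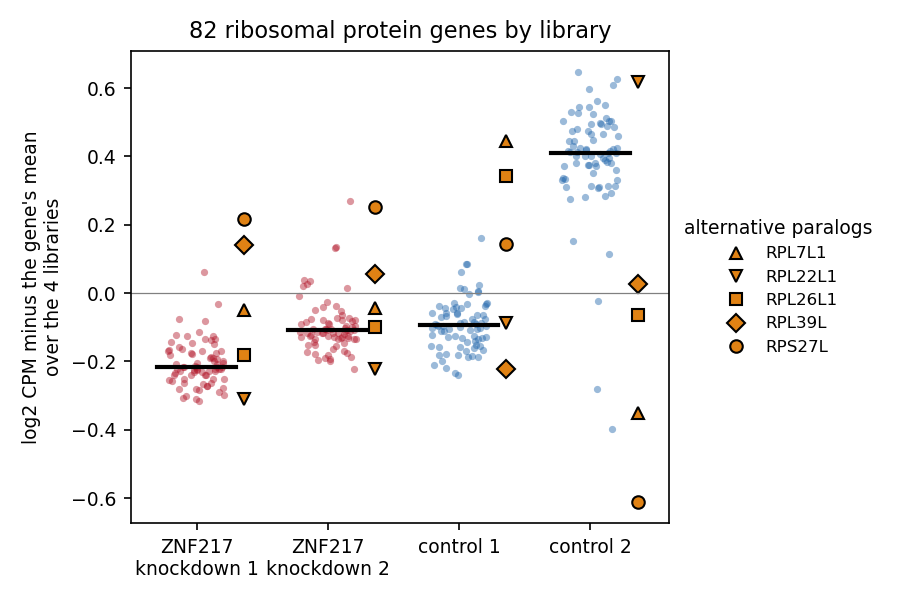
Level of 82 ribosomal protein genes in each library, as log2 CPM minus the gene's own mean over the 4 libraries; each point is a gene, black bars are medians and orange symbols the 5 tested alternative paralogs. Knockdown libraries and control 1 occupy one band, most genes stand higher in control 2, and RPS27L and RPL7L1 lie far below the others there.

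Against control 1 the knockdown libraries differed little. The mean of the knockdown libraries was lower for 62 of 82 genes (background 49.6%) and higher for 20 (background 50.4%), with a median log2 ratio of −0.06 and a range of −0.49 to 0.32, and 0 genes passed 1.5-fold in either direction (background 14.7% higher and 9.26% lower). The median was 0.00 without knockdown 1 and −0.11 without knockdown 2. Both knockdown libraries lay below control 1 for 41 genes (background 42.4%) and above it for 9 (background 43.4%). Against control 2 the mean was lower for 76 genes (background 48.3%) and higher for 6 (background 51.7%), with a median of −0.58 and a range of −0.89 to 0.84. More than 1.5-fold lower were 36 genes (background 19.4%) and more than 1.5-fold higher was 1, RPS27L (background 21.3%). Both knockdown libraries lay below control 2 for 76 genes (background 43.6%) and above it for 5 (background 46.8%). The comparisons share the knockdown libraries, and each difference between them is the control 2 to control 1 ratio itself. Within the knockdown pair, 79 of 82 genes were higher in knockdown 2 than in knockdown 1 (background 47.1%) and 3 lower (background 52.9%), by a median log2 ratio of 0.10, and 0 passed 1.5-fold (background 1.97% higher and 2.61% lower).

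**Figure D3:**
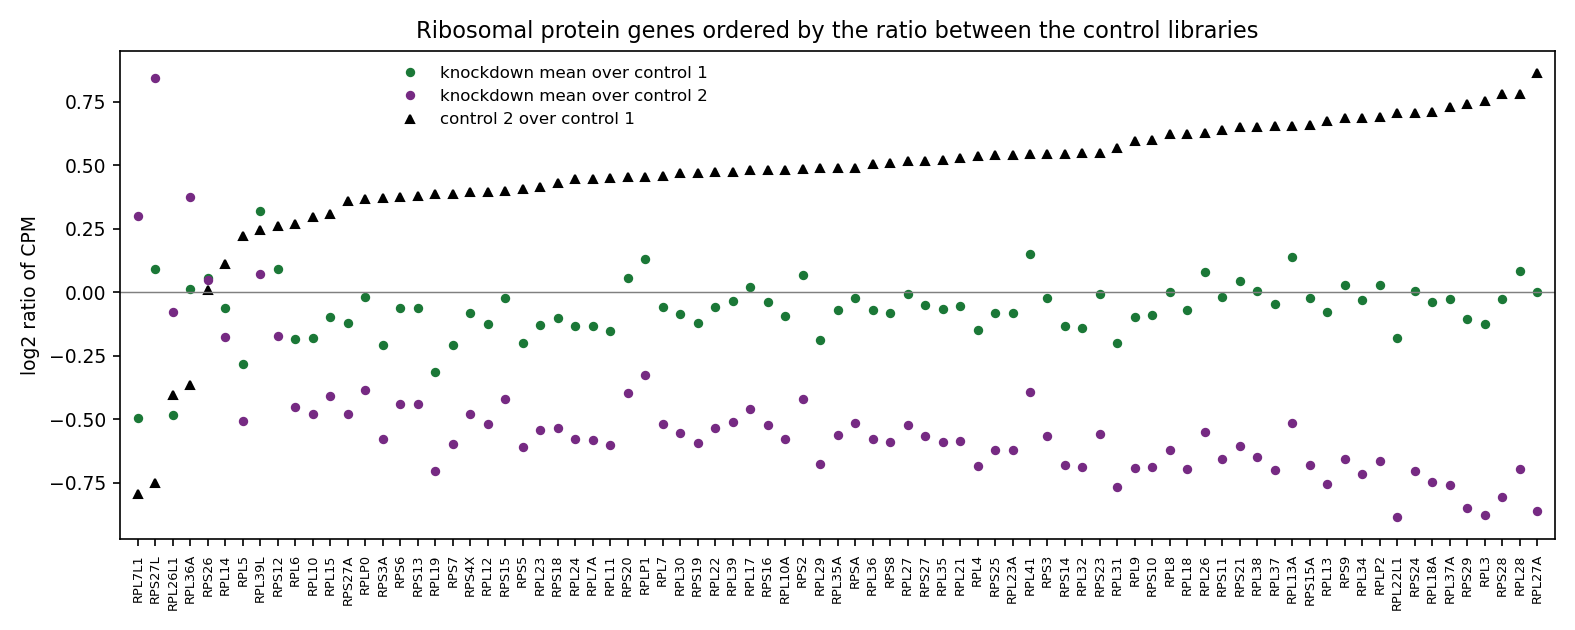
Log2 CPM ratios of 81 tested ribosomal protein genes, ordered from left to right by control 2 over control 1 (black triangles), with the knockdown mean over control 1 (green) and over control 2 (purple). Green points lie around 0 with a median of −0.06 and purple points around −0.58, except for RPL7L1, RPS27L, RPL36A, RPS26 and RPL39L, which are above 0 against control 2.

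With both controls in the fit, the knockdown over control log2 fold change was negative for 77 of 82 genes (background 50.5%), with a median of −0.34 against −0.01 over all tested genes. By edgeR, 0 of the 82 genes had an adjusted p under 0.05, as had 0 of the 12965 genes tested (0%). At an unadjusted p under 0.05, 1 gene was lower (background 6.42%) and 0 were higher (background 6.61%). DESeq2 called 0 of the 82 genes, with a lowest adjusted p of 0.356, while it called 259 genes lower (2%) and 212 higher (1.64%) in the whole table. Both knockdown libraries lay below both controls for 40 genes (48.8%, background 22.9%) and above both for 2 genes, RPL39L and RPS27L (2.44%, background 25.4%). The median rests largely on control 2: without control 2 it was −0.06 and without control 1 it was −0.59, over 83 genes in each fit. In those fits the lone control is assumed to vary like the knockdown pair. The count of 40 genes was 41 without control 2 (background 42.4%), 76 without control 1 (background 43.6%) and 70 without knockdown 2 (background 28.4%).

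Among large-subunit genes other than the stalk and the paralogs, 24 of 43 (55.8%, background 22.9%) lay below both controls in both knockdown libraries, with a median log2 fold change of −0.35. RPL19, a protein near the exit of the peptide tunnel, had the lowest p of the set. It had 1588 and 1731 CPM in knockdown cells, against 2062 and 2696 CPM in control cells, so the groups did not overlap, and the mean was 1.43-fold lower (log2 fold change −0.52, standard error 0.19, unadjusted p = 0.040, adjusted p = 0.363 by edgeR). RPL31, also at the tunnel exit, had 974 and 1034 CPM in knockdown cells, against 1152 and 1708 CPM in control cells, without overlap (adjusted p = 0.432 by edgeR). Of the 8 tunnel-exit genes, 8 had a negative log2 fold change (background 50.5%), with a median of −0.33, and 4 were below both controls (background 22.9%), close to the 77 and 40 of 82 over the whole set.

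RPL5 and RPL11, which bind the 5S ribosomal RNA, each had both knockdown values under both control values. RPL5 had 1589 and 1683 CPM in knockdown cells, against 1989 and 2323 CPM in control cells (log2 fold change −0.40, standard error 0.16, adjusted p = 0.390 by edgeR). RPL11 had 1703 and 1745 CPM in knockdown cells, against 1914 and 2618 CPM in control cells (log2 fold change −0.39, standard error 0.20, adjusted p = 0.471 by edgeR). The nearest values of the groups were farther apart for RPL5 than for RPL11. Control 1 and control 2 differed less for RPL5 than for most of the set, by a log2 ratio of 0.22.

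The stalk proteins RPLP0, RPLP1 and RPLP2, which recruit elongation factors to the large subunit, gave no gene without overlap. RPLP1 had 2856 and 3162 CPM in knockdown cells, against 2742 and 3760 CPM in control cells, so that the knockdown libraries lay between the controls, and its log2 fold change of −0.11 was 0.01 with scaling by total counts. RPLP0 had 3602 and 3788 CPM in knockdown cells, against 3738 and 4818 CPM in control cells. RPLP2 had 2098 and 2290 CPM, against 2150 and 3470 CPM. The median log2 fold change of the 3 genes was −0.21.

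In the small subunit, 14 of 31 genes (45.2%, background 22.9%) lay below both controls, with a median log2 fold change of −0.33. RPS7 had 716 and 743 CPM in knockdown cells, against 843 and 1104 CPM in control cells, and RPS3A had 1842 and 1929 CPM, against 2177 and 2815 CPM; neither overlapped (adjusted p = 0.439 and 0.434 by edgeR). RPS6, the protein that S6 kinases phosphorylate when mTOR is active, had 2487 and 2643 CPM in knockdown cells, against 2676 and 3475 CPM in control cells, a narrow gap to control 1. RPS27A, made as a fusion with ubiquitin, had 2322 and 2503 CPM, against 2619 and 3363 CPM, also without overlap. RPSA, known as well as the laminin receptor, had 3506 and 3653 CPM in knockdown cells, against 3637 and 5110 CPM in control cells, and its groups overlapped. RPS12, the most abundant, had 1940 and 2094 CPM, against 1893 and 2272 CPM, with both knockdown values between the controls, and its log2 fold change of −0.05 was 0.07 with scaling by total counts.

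Of 9 genes mutated in Diamond-Blackfan anaemia, a red cell aplasia caused by ribosomal protein loss, 7 had a negative log2 fold change (background 50.5%), with a median of −0.39, and 5 were below both controls (background 22.9%), again close to the whole set. RPS26 was not among the 7: it had 378 and 438 CPM in knockdown cells, against 391 and 393 CPM in control cells, and its groups overlapped.

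The canonical partners of the paralogs kept close to the rest of the set: of the 7, 5 lay below both controls (background 22.9%), with a median log2 fold change of −0.32. RPL10, which completes the large subunit late in its maturation, had 1728 and 1826 CPM in knockdown cells, against 2012 and 2473 CPM in control cells, and RPL3 had 2260 and 2349 CPM, against 2509 and 4232 CPM. RPS27, a zinc-finger protein of the small subunit, had 1659 and 1763 CPM in knockdown cells, against 1769 and 2529 CPM in control cells, so that knockdown 2 and control 1 almost met. RPL22 had 468 and 453 CPM, against 479 and 666 CPM, with a similarly narrow gap. For RPL26 and RPL39 control 1 lay inside or under the knockdown values: RPL26 had 794 and 841 CPM in knockdown cells, against 773 and 1195 CPM in control cells, and RPL39 had 1042 and 1109 CPM, against 1100 and 1529 CPM.

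The 5 tested alternative paralogs parted from their canonical partners in different directions. All 5 partners were higher in control 2 than in control 1, while 3 of the paralogs were lower. Given per length as a percentage of its partner, RPL22L1 had 40.6% and 44.4% in knockdown cells, against 46.2% and 54.2% in control cells, the groups not overlapping. RPL39L, the testis-enriched form of RPL39, had 14.8% and 13.1% in knockdown cells, against 10.9% and 9.29% in control cells, also without overlap but in the other direction. RPS27L, a p53-inducible form of RPS27, had 0.456% and 0.440% in knockdown cells, against 0.407% and 0.169% in control cells, without overlap and with control 1 close to the knockdown pair. For the remaining pairs the knockdown values lay between the controls: RPL26L1 had 26.5% and 26.4% of RPL26 in knockdown cells, against 39.1% and 19.1% in control cells. RPL7L1, related to a yeast factor of large-subunit assembly, had 2.25% and 2.18% of RPL7, against 2.99% and 1.25%. The size of each percentage depends on the deposited lengths. These were 2051 bases for RPL22L1 and 4665 for RPL22, but 8825 for RPS27L and 1035 for RPS27. Without division by length, RPL22L1 made up 16.9% and RPS27L 3.35% of the counts of its pair in control 1.

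**Figure D4:**
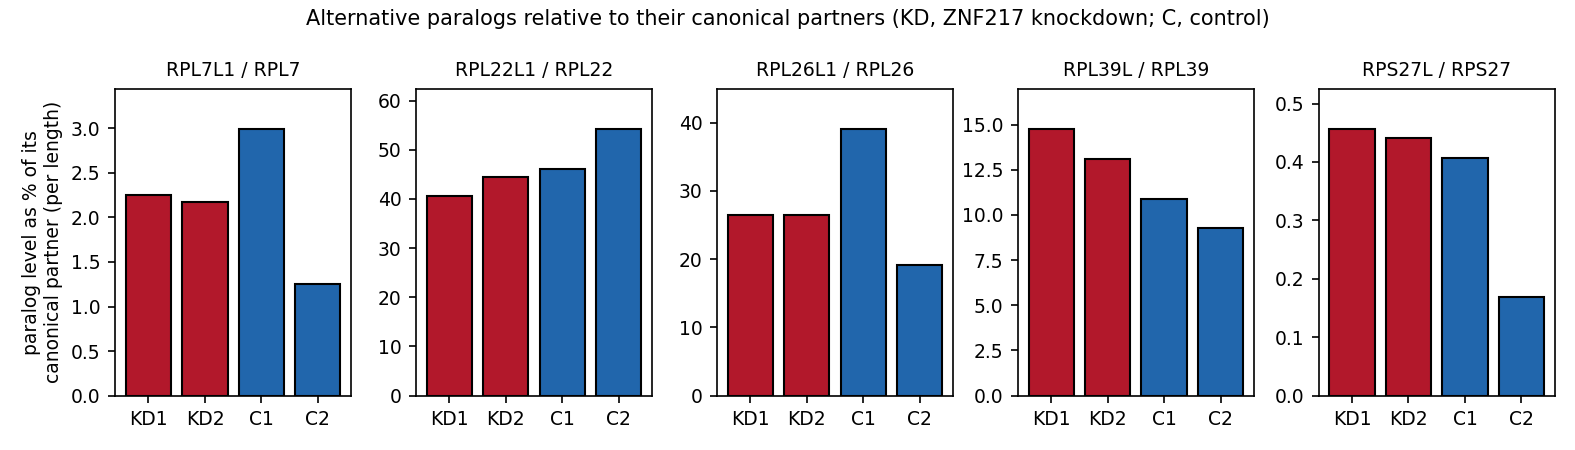
Level of each of the 5 tested alternative paralogs as a percentage of its canonical partner, per deposited gene length. Each bar is 1 library, with KD for knockdown and C for control, and each panel has its own axis from 0. RPL22L1 is lower in both knockdown libraries, RPL39L and RPS27L are higher, and the controls lie on either side of the knockdown libraries for RPL7L1 and RPL26L1.

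In CPM, RPS27L had 64.6 and 66.2 in knockdown cells, against 61.4 and 36.4 in control cells (log2 fold change 0.42, standard error 0.29, adjusted p = 0.581 by edgeR). RPL39L had 74.6 and 70.4 CPM, against 58.1 and 68.9 CPM (log2 fold change 0.19, standard error 0.19, adjusted p = 0.697 by edgeR). RPL22L1 had 83.3 and 88.5 CPM, against 97.3 and 159 CPM (log2 fold change −0.58, standard error 0.28, adjusted p = 0.455 by edgeR). RPL26L1 had 97.3 and 103 CPM, against 139.8 and 105.5 CPM, also below both controls. Of the 5 tested paralogs, 2 thus lay below both controls (background 22.9%) and 2 above (background 25.4%). None passed the adjusted threshold by edgeR or DESeq2. Against control 1 alone edgeR called 5 genes of the set, 4 lower (background 16.6%) and 1 higher (background 18%): RPL7L1, RPL26L1, RPL19 and RPL5 with log2 fold changes of −0.49, −0.48, −0.32 and −0.28, and RPL39L with 0.32. Against control 2 alone it called 73 lower (background 28%) and 4 higher (background 27.9%), with RPL3L, RPL7L1 and RPS27L among the higher ones. RPL3L passed the low-count filter in these fits, but had only 11 and 9 counts in knockdown cells, against 1 and 0 in control cells. Its log2 fold change of 6.29 against control 2 (standard error 2.34) rests on a count of 0 there. RPL7L1 was called in opposite directions by these fits.

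Genes with and without a TOP start at the annotated start had ratios of similar size. Actual starts were not measured, so genes counted as without one may still begin with a tract. The 47 tested genes with a TOP start, such as RPL31 and RPL26 in the windows above, had a median log2 ratio of 0.52 for control 2 over control 1 and a median log2 fold change of −0.34 for knockdown over control. For the 19 genes with an entry but no TOP start the medians were 0.40 and −0.32, and for the 16 without an entry 0.48 and −0.35. Both knockdown libraries lay below both controls for 21 of the 47, 12 of the 19 and 7 of the 16 genes (background 22.9%). Gene length moved with the ratio in other genes: for control 2 over control 1 the median was 0.32 over 477 tested genes outside the set shorter than 1500 bases, 0.13 at 1500 to 3000, −0.02 at 3000 to 6000 and −0.08 at 6000 bases or more. Ribosomal protein genes had medians of 0.53, 0.48, 0.48 and 0.67 in the same classes, the first of 8 genes and the last of 12. The part of length in the result was not tested.

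Other genes of protein synthesis split into groups. A list of 22 tested translation factors and other genes holds mRNAs known to start with TOP tracts. Of these, 19 lay below both controls in both knockdown libraries (86.4%, background 22.9%) and 0 above (background 25.4%). Their medians were −0.30 for the log2 fold change, −0.21 against control 1, −0.36 against control 2 and 0.19 for control 2 over control 1. BTF3, a subunit of the nascent polypeptide-associated complex, had 661 and 643 CPM in knockdown cells, against 976 and 1289 CPM in control cells (log2 fold change −0.80, adjusted p = 0.248 by edgeR). The initiation factor subunit EIF3L and the histone chaperone NAP1L1 were lower in the same way, with log2 fold changes of −0.75 and −0.53 and adjusted p-values of 0.269 and 0.288 by edgeR. Unlike most ribosomal protein genes, NAP1L1 was nearly level between controls, at 732 CPM in control 2 and 774 CPM in control 1.

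Ribosome assembly factors had the opposite sign between controls: 61 of 66 were lower in control 2 than in control 1 (background 50%), with a median log2 ratio of −0.76, and 39 were more than 1.5-fold lower (background 19.8%). Their medians for knockdown were −0.28 against control 1 and 0.46 against control 2, with 6 genes below (9.09%, background 22.9%) and 5 above both controls (7.58%, background 25.4%). DDX10, an RNA helicase of small-subunit assembly, had 214 and 226 CPM in knockdown cells, against 74.0 and 116 CPM in control cells (log2 fold change 1.21, adjusted p = 0.229 by edgeR). RNA polymerase I genes (14 tested) also had a negative median between controls, −0.72. MYC, which drives transcription of ribosome genes, had 15.5 and 20.3 CPM in knockdown cells, against 49.3 and 41.8 CPM in control cells (log2 fold change −1.35, adjusted p = 0.177 by edgeR). The 77 tested mitochondrial ribosomal protein genes had medians of −0.01 against control 1, 0.03 against control 2 and −0.05 between controls, and 42 small respiratory chain subunits, which are also short and abundant mRNAs, had 0.07, −0.23 and 0.30. RACK1, a scaffold protein of the small subunit outside the naming rule, had 1783 and 1842 CPM in knockdown cells, against 1962 and 2547 CPM in control cells.

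**Figure D5:**
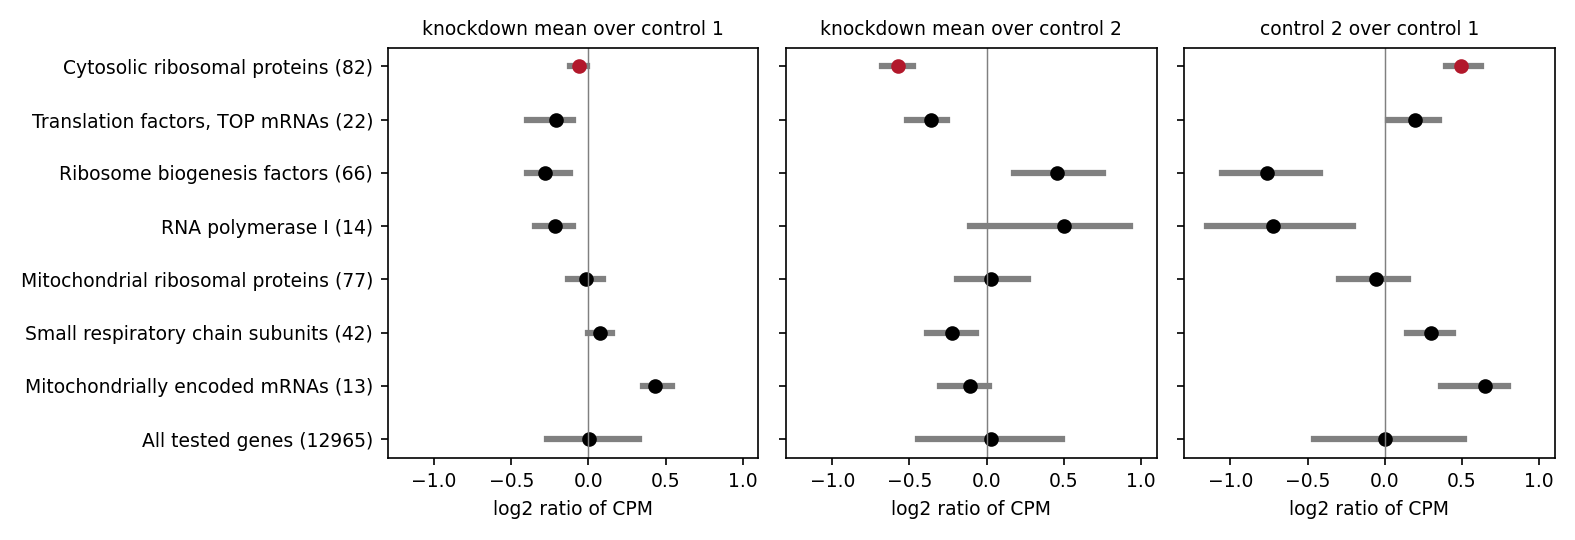
Median (point) and quartiles (grey bar) of the log2 CPM ratio for lists of genes in 3 comparisons: knockdown mean over control 1, knockdown mean over control 2, and control 2 over control 1; numbers in brackets are tested genes. Cytosolic ribosomal proteins (red) have medians of −0.06, −0.58 and 0.49, and assembly factors have −0.28, 0.46 and −0.76.

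The authors' deposited table gives log2 fold changes as control over knockdown. Of the ribosomal protein genes in the authors' deposited table, 81 had a value above 0. The median over the tested genes was 0.74, against 0.03 over all genes with a value. Of 82 genes with an adjusted p, 0 were under 0.05. The shares of all genes above 0 and of all genes under 0.05 in the authors' deposited table were not counted. The lowest adjusted p in the authors' deposited table was that of RPL21, 0.0797, with a log2 value of 1.14. From the 4 libraries the median turned to the same direction was 0.34. For 932 genes, RPL3L among them, the authors' deposited table lists a mean of 0 although these libraries hold counts, and which libraries entered it is not stated.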

How the data were processed

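The authors deposited raw read counts for each gene and library. The submitters' processing notes name the tools Trimmomatic, HISAT2, Subread and DESeq2, and the build GRCh38; they give no annotation, strand setting or treatment of multiply mapped reads. A second deposited table holds a signal equal to count per length, scaled to a column sum 10 times that of TPM; TPM here is that signal divided by 10. It also holds the authors' mean of normalized counts, a signal used only for genes listed at 0. The log2 fold changes, the score (test statistic), p-values and adjusted p-values in the authors' deposited table come from DESeq2, per the file headers, and entered no test here.

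Counts were fitted with edgeR 4.0.16 (quasi-likelihood test, TMM, low-count filter with a minimum count of 10 and total of 15) in R 4.3.3, over 12965 genes, two-sided, with Benjamini-Hochberg adjustment and a threshold of 0.05. CPM uses TMM-scaled totals; single-library ratios use log2 CPM with a prior count of 2. DESeq2 1.42.0, other scalings, other filters, the replicate block and leaving out each library were alternatives. Positions came from GENCODE release 29 and sequences from RefSeq. The fits were tested on simulated data with the same spread in both groups. In the real libraries the common biological coefficient of variation was 0.078 in the knockdown and 0.393 in the control pair. The simulation therefore does not show how the fits perform on spreads this unequal. Totals were 21466327 to 24487126 counts, and a count of 0 allows up to 0.123 to 0.140 CPM.

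The members and gene lists were chosen with earlier results of these data known. The genes given with values were 8 ribosomal proteins fixed by name, the 7 paralogs and their partners, the 5 lowest p-values in each direction, the 3 highest and lowest levels, the 5 largest and smallest control ratios, and up to 3 genes of each other list. Some genes are not reported here. RPL21, RPS10, RPL17 and RPL23A were named after their values were seen. A list of replication-dependent histone genes matched no symbol.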

Additional observations from a re-analysis of the deposited data

How the results depend on the processing

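At this depth a gene such as RPL19 has at least 40676 counts in a library. The spread between the 2 libraries of a group, and not counting error, therefore limits precision. RPL36A has at least 238 counts, and RPL3L and RPL10L have too few to pass the low-count filter in the fit of all libraries. The number of genes called in the whole table, 0, was 19 without a low-count filter, 471 by DESeq2 and 15 to 7439 with 1 library left out. The labels do not say whether libraries of the same replicate number form pairs. The correlation of same-numbered deviations was −0.03, which with 2 libraries per group cannot exclude pairing. With the replicate number as a block 284 genes were called, 0 of them ribosomal protein genes. The number of ribosomal protein genes called stayed 0 under both other scalings, both other filters and DESeq2, and was 0 to 77 with 1 library left out, when the median log2 fold change was −0.59 to −0.062 and the count of genes with both knockdown libraries below the controls was 40 to 76. For ZNF217 the log2 fold change was −1.03 by DESeq2 (adjusted p = 0.00911) and −1.13 to −0.89 with 1 library left out. Scaling by total counts moved the median of all tested genes to 0.11 for knockdown over control, 0.21 for knockdown over control 2 and −0.14 for control 2 over control 1. The medians of the set were then −0.22, −0.39 and 0.35, 28 genes had both knockdown libraries below both controls, and RPLP1 and RPS12 changed sign, to 0.013 and 0.074. Among the 32 tested genes named and their alternatives, 277 values kept sign and side of the threshold, 31 kept sign and passed it, and 12 changed sign, of which RPL7L1 without control 1 also passed it (adjusted p = 0.035 by edgeR). With 1 library left out, the log2 fold change ranged over −0.56 to 0.080 for RPL26, −0.87 to 0.0019 for RPL27A, −0.70 to 0.090 for RPL28, −0.49 to 0.29 for RPL7L1, −0.33 to 0.13 for RPLP1 and −0.67 to 0.027 for RPLP2. It ranged over −0.18 to 0.090 for RPS12, −0.61 to 0.045 for RPS21 and −0.051 to 0.16 for RPS26. The ends against the reported sign came without control 1 for RPL7L1, without knockdown 2 for RPS26 and without control 2 for the others; RPS12 also gave 0.0079 without knockdown 1. The alternatives to the count of genes below both controls, and the principal transcript lengths, were chosen after seeing the data. The causes were not tested.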

Other observations

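Transcripts of the mitochondrial genome, which encode respiratory chain subunits made by the organelle's own ribosomes, had their lowest share in control 1, unlike those of the cytosolic ribosome. The 13 tested genes had a median log2 ratio of 0.43 for the knockdown mean over control 1, with all 13 higher (background 50.4%), of −0.11 over control 2, with 9 lower (background 48.3%), and of 0.65 for control 2 over control 1. MT-CO1, a cytochrome c oxidase subunit, had 8862 and 9646 CPM in knockdown cells, against 5233 and 9167 CPM in control cells. By edgeR 0 of the 13 passed the adjusted threshold, by DESeq2 also 0, and 1 gene, MT-ATP8, which overlaps MT-ATP6 and may share reads with it, had an unadjusted p under 0.05.

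Of 12 regulators of ribosomal protein synthesis, 3 lay below both controls in both knockdown libraries (25%, background 22.9% of all tested genes) and 2 above (16.7%, background 25.4%), with a median log2 fold change of −0.02. The share below is near the background. Besides MYC, PDCD4, an inhibitor of the initiation helicase, had 28.8 and 22.8 CPM in knockdown cells, against 42.9 and 87.2 CPM in control cells (log2 fold change −1.33, adjusted p = 0.288 by edgeR). EIF4EBP1, which holds back the cap-binding protein until mTOR phosphorylates it, had 169 and 193 CPM in knockdown cells, against 248 and 274 CPM in control cells (log2 fold change −0.52, adjusted p = 0.334 by edgeR). DESeq2 called 2 of the 12 lower, against 2% of all tested genes, and edgeR called 0 (3 with an unadjusted p under 0.05, all lower).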
